A study of Mus musculus with 16 samples.

Results

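The genes described here are 40 genes known for their use by monocytes and macrophages, out of 24562 genes in the count table. They were picked by symbol, and for each the transcript with the highest total count over all libraries stood for the gene. Beyond the choice of members, measured values enter the rule only through that choice of transcript. All 40 were found. The members were chosen with earlier results of these data known, among them a rise of Csf1r and Lyz1 in these B1b cells. Those 2 values and counts over the list are therefore described and are not independent support for the list.

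The study compared wild-type mice with mice whose B cells lack CD40, a receptor through which T cells activate B cells, in atherosclerosis. Every sample came from the strain labelled ApoE-/-, which lacks apolipoprotein E and develops atherosclerotic plaques, so wild type here refers to the B cell genotype alone. The groups were B1b cells labelled wt (3 libraries), B1b cells labelled cre (3), aortas labelled wt (5) and aortas labelled cre (5). No source used here names the promoter that drives Cre or the age and diet of the mice. Nothing states that the libraries are from different animals, so a p-value reflects only the spread between these samples, which may be technical. B1b cells, a B cell subset of the body cavities, were taken from the peritoneal cavity by lavage and sorted on a gate with B220 low, IgM high and CD5 low, among other criteria.

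Libraries held 6815829 to 9911226 counts in B1b cells and 1645926 to 7300894 in aortas, with 2 aortas, wt 5 and cre 2, under 2000000. Levels are in CPM, counts scaled to a common library size after normalisation, unless said to be per length. Cd40 stood at 39.4, 34.0 and 36.8 CPM in wild-type B1b cells and at 30.0, 30.2 and 38.1 CPM in cre B1b cells, and the groups overlapped (edgeR quasi-likelihood adjusted p = 0.679). In aortas it ran from 4.76 to 12.0 CPM in wild type and from 1.85 to 8.51 CPM in cre (edgeR adjusted p = 0.711). The labels do not say which exons were removed, so these levels do not check them. Summed over 10 B cell genes, B1b libraries stood at 11200, 10700 and 11000 CPM in wild type and at 9890, 10600 and 10500 CPM in cre. Every cre B1b library thus lay below every wild-type one, a difference that was not tested. Aortas stood at 136 to 322 CPM.

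Monocytes circulate in blood and enter tissues, where they can become macrophages; other macrophages settle before birth and renew themselves in place. Many of them depend on the growth factor receptor encoded by Csf1r, digest what they engulf in lysosomes, and make lysozyme and complement C1q. In the peritoneal cavity large resident macrophages carry Gata6, Timd4 and Adgre1 (F4/80), and in plaques macrophages loaded with lipid carry Trem2 and Gpnmb. Several of the genes are not restricted to macrophages: B cells also use cathepsin S, the oxidase subunit Cybb and Plac8, and stromal cells make fibronectin.

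The promoters of the neighbouring lysozyme genes are shown because both genes stood higher in every cre B1b library. That of Retnla, also higher there, is shown for its PU.1 site. Lyz1 lies on chromosome 10 from 117287795 to 117292868 and Lyz2 from 117277541 to 117282272 (GRCm38, the assembly behind mm10). The windows are the 250 bases before each start, on the strand of the gene, from RefSeq annotation of GRCm38.p6. For the lysozymes the capitals mark the longest run shared by both windows, 50 bases that end at the start site. For Retnla they mark the reverse strand of GAGGAAGT, a form of the site of PU.1, the transcription factor of myeloid and B cells.
Lyz1, chr10:117292869-117293118, minus strand: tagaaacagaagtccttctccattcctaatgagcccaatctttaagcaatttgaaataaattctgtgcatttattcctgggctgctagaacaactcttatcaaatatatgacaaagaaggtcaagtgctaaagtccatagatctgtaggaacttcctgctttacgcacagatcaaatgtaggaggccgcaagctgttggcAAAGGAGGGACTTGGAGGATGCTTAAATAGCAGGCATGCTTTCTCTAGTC
Lyz2, chr10:117282273-117282522, minus strand: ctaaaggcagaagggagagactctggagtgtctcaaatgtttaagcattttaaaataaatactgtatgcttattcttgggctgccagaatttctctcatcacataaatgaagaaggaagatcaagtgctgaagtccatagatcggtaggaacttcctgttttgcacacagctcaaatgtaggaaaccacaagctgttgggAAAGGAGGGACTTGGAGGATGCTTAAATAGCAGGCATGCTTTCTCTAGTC
Retnla, chr16:48842359-48842608, plus strand: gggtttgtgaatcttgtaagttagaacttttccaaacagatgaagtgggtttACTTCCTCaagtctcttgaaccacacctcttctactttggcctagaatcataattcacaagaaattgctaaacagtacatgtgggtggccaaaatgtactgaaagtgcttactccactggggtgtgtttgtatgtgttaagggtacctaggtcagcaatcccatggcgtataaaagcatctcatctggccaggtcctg
Of 240 aligned bases, 205 were identical between the lysozyme windows (85.4%). The transcripts are alike as well: 16.06% of the 50-base stretches of Lyz1 also occur in another gene, mostly Lyz2, so reads could be split between them. The core motif GAGGAA, searched on both strands and contained in GAGGAAGT, occurred in 23.3% of 32851 promoter windows and in 15 of the 35 windows of the 27 listed genes that had one (42.9%). The longer GAGGAAGT occurred in 2.44% of all windows and in 4 of the 35 (11.4%), which belong to C1qc, Ly6c2 and Retnla. Windows of the same gene can overlap, as those of Ly6c2 do, so a site can be counted more than once. By gene, the core occurred in 13 of the 27 and the longer form in 3. Such a match is a description of letters, not a measured binding site.

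In B1b cells the macrophage growth factor receptor and the lysozyme Lyz1 rose in the cre group and the lysosomal protease legumain (Lgmn) fell. Retnla, Fn1, Lyz2, F13a1, Mrc1, Cd163, Clec7a and C1qa had higher values in all 3 cre libraries than in any wild-type library but did not pass the test. Adgre1, Timd4 and Gata6, which mark resident peritoneal macrophages, were not among them, but Gata6 was too low to test and Timd4 had 11 to 26 counts. Of 12 genes of the large peritoneal macrophage, these 3 included, 7 could be tested, and none passed. Their log2 fold changes were above 0 for 3 and below 0 for 4. Of the 40 genes, 32 were abundant enough to test. At an adjusted p under 0.05, 2 rose, against 0.486% of all 11732 genes tested, and 1 fell, against 0.222%. The 2 were Csf1r and Lyz1, whose rise was known when the list was put together, so that count is not independent support. Both are also within the counts of higher genes that follow. Before adjustment 12 had a higher level at p under 0.05 (7.63% of all genes) and 1 a lower one (5.69%). The cre libraries stood wholly above the wild-type ones for 12 genes, against 9.71% of all genes, and wholly below for 3, against 8.66%. The log2 fold change was above 0 for 21 of the 32, against 49.1% of all genes, with a median of 0.19 beside 0.00 over all genes. In a bulk sample, more or fewer cells of a type cannot be told apart from more or less RNA per cell.

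**Figure D1:**
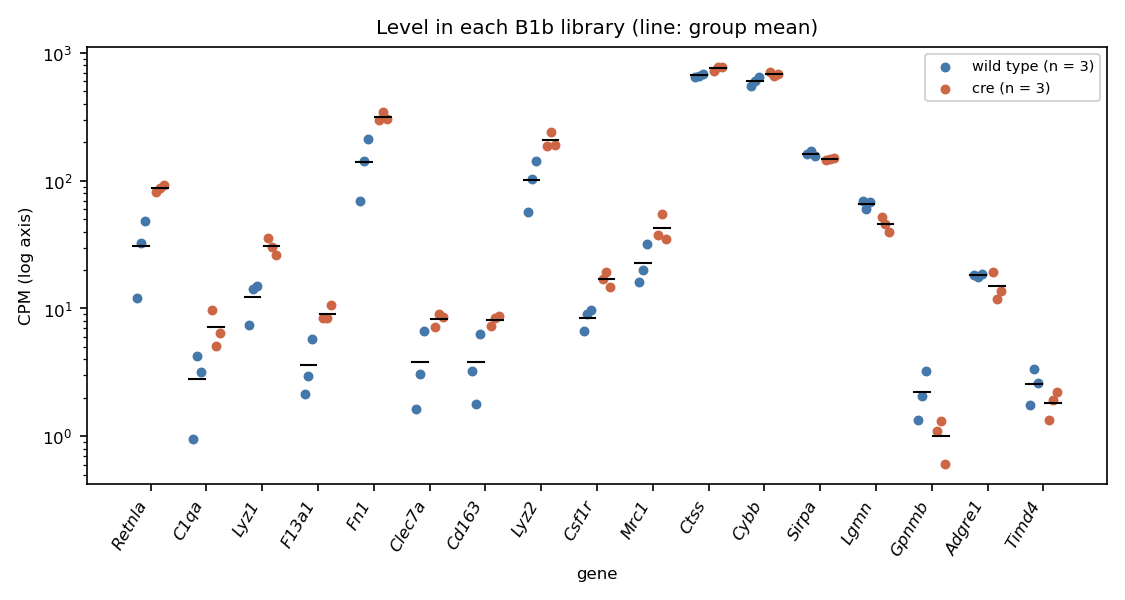
Level in CPM (log axis) of the 15 tested genes whose wild-type and cre B1b libraries do not overlap, and of Adgre1 and Timd4, in each of 3 wild-type (blue) and 3 cre (orange) libraries, with a line at the group mean. Retnla runs from 12.0 to 48.0 CPM in wild type and from 81.6 to 91.9 in cre, while the values of Adgre1 and Timd4 overlap.

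Among receptors and surface or signalling proteins, 7 of 11 could be tested. Csf1r encodes the receptor of macrophage colony-stimulating factor. It stood at 6.62, 8.99 and 9.80 CPM in wild-type B1b cells and at 17.1, 19.2 and 14.6 CPM in cre. All cre libraries lay above all wild-type ones. The log2 fold change was 0.99 (SE 0.21, 95% interval 0.54 to 1.44, edgeR quasi-likelihood adjusted p = 0.0357, n = 3 a group). The call rested on single libraries: dropping any of 4 of the 6 ended it, with adjusted p of 0.181 without wild type 1, 0.0781 without wild type 2, 0.11 without cre 1 and 0.124 without cre 2 (edgeR). Adgre1, the gene of F4/80, was at 18.4, 17.5 and 18.7 CPM in wild type and at 19.4, 11.9 and 13.6 CPM in cre. Its groups overlapped (log2 fold change -0.28, edgeR adjusted p = 0.578). Sirpa, the receptor of the "don't eat me" protein CD47, was at 162, 170 and 156 CPM in wild type and at 145, 147 and 151 CPM in cre. These groups did not overlap, but the difference of -0.14 on the log2 scale did not pass (edgeR adjusted p = 0.475). The remaining tested genes of this kind overlapped and differed little: Cd68 by 0.22, Cd14 by 0.18, Tyrobp by -0.10 and Ms4a6c by -0.01 on the log2 scale. Lst1, Aif1, Trem2 and Ms4a7 were too low to test, with group means from 0.109 CPM (Trem2, wild type) to 1.39 CPM (Ms4a7, cre).

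Lysozymes break bacterial cell walls, and in the mouse Lyz2 is the form of macrophages. Lyz1 was at 7.43, 14.3 and 14.9 CPM in wild-type and at 35.5, 30.3 and 26.1 CPM in cre B1b cells. Each cre value exceeded every wild-type value, with a log2 fold change of 1.32 (SE 0.22, 95% interval 0.86 to 1.77, edgeR adjusted p = 0.00637). Without cre 1 its adjusted p was 0.0528 (edgeR). Lyz2, the more abundant gene, was at 57.4, 103 and 142 CPM in wild type and at 187, 242 and 191 CPM in cre. The groups did not overlap either, yet wild type 1 and 3 lay 2.47-fold apart and the log2 fold change of 1.03 did not pass (SE 0.37, edgeR adjusted p = 0.368). The microbial killing genes showed small differences at high levels. Cybb, the catalytic subunit of the phagocyte oxidase, was at 550, 602 and 648 CPM in wild type and at 713, 660 and 687 CPM in cre, again without overlap (log2 fold change 0.19, edgeR adjusted p = 0.27). Mpeg1, which encodes the pore-forming perforin-2, differed by 0.05.

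The lysosomal genes did not move as a group, with a median log2 fold change of -0.04 over 8. Lgmn, which encodes legumain, an asparaginyl endopeptidase that processes antigens and cathepsins, was at 69.0, 60.1 and 68.1 CPM in wild type and at 51.7, 45.9 and 39.6 CPM in cre. It lay lower in every cre library, with a log2 fold change of -0.53 (SE 0.11, 95% interval -0.77 to -0.29, edgeR adjusted p = 0.0357). That call held when cre 1 was dropped and ended when any of the other 5 libraries was, with edgeR adjusted p up to 0.171. Ctss, cathepsin S, was at 646, 665 and 690 CPM in wild type and at 728, 772 and 779 CPM in cre, without overlap (log2 fold change 0.19, edgeR adjusted p = 0.244). Gpnmb, a glycoprotein of lipid-laden macrophages, was low, at 1.35, 2.06 and 3.27 CPM in wild type and at 1.10, 1.32 and 0.605 CPM in cre. The cre values were the lower ones, with an uncertain log2 fold change of -1.17 (95% interval -2.44 to 0.10, edgeR adjusted p = 0.422). The other lysosomal genes overlapped and differed by -0.05 (Psap) to 0.17 (Ifi30) on the log2 scale, Ctsb, Ctsd and Ctsl included.

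Complement C1q, fibronectin and clotting factor XIII, proteins that macrophages release, had positive differences throughout, with a median log2 fold change of 1.15 over 5 genes and none past the threshold. Retnla, Mrc1 and Cd163, genes of alternatively activated macrophages, had differences of similar size. Fn1 was at 69.3, 142 and 211 CPM in wild type and at 297, 343 and 303 CPM in cre (log2 fold change 1.15, edgeR adjusted p = 0.393). F13a1, the factor XIII subunit A of monocytes, was at 2.16, 2.95 and 5.77 CPM in wild type and at 8.42, 8.35 and 10.6 CPM in cre (log2 fold change 1.31, edgeR adjusted p = 0.0838). C1qa, a chain of complement C1q, was at 0.945, 4.24 and 3.16 CPM in wild type and at 9.76, 5.13 and 6.46 CPM in cre (log2 fold change 1.34, edgeR adjusted p = 0.163). In all of these the lowest cre library stood above the highest wild-type one. The partner chains overlapped, with log2 fold changes of 0.90 for C1qb and 0.23 for C1qc.

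Retnla, a secreted protein induced by interleukin-4, had the largest difference among the 32 tested genes. It was at 12.0, 32.4 and 48.0 CPM in wild type and at 81.6, 87.4 and 91.9 CPM in cre. The cre libraries lay close together and the wild-type ones 4.0-fold apart, and the log2 fold change of 1.48 (SE 0.50, 95% interval 0.13 to 2.83) did not pass (edgeR adjusted p = 0.343). Mrc1, the mannose receptor, was at 16.2, 19.9 and 32.1 CPM in wild type and at 37.5, 55.1 and 34.7 CPM in cre (log2 fold change 0.88, edgeR adjusted p = 0.184). Cd163, the scavenger receptor of haemoglobin, was at 3.24, 1.8 and 6.32 CPM in wild type and at 7.32, 8.35 and 8.68 CPM in cre (log2 fold change 1.08, edgeR adjusted p = 0.198). Neither overlapped between genotypes. Of the resident peritoneal macrophage genes among the 40, Timd4 and Gata6 were low. Timd4, a receptor for phosphatidylserine, was at 1.76, 3.34 and 2.61 CPM in wild type and at 1.34, 1.91 and 2.22 CPM in cre (log2 fold change -0.49, edgeR adjusted p = 0.755). Gata6, the transcription factor of these cells, was at 0.675, 0 and 0.762 CPM in wild type and at 0.366, 0 and 0 CPM in cre, too low to test. A count of 0 there allows up to 0.44 CPM for counting error alone. Folr2 and Lyve1, of resident macrophages around vessels, were also too low, with group means of 0.834 to 1.25 CPM.

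Clec7a, the receptor dectin-1 for fungal glucans, was at 1.62, 3.08 and 6.64 CPM in wild type and at 7.20, 9.09 and 8.58 CPM in cre. The groups did not overlap and the log2 fold change of 1.10 did not pass (edgeR adjusted p = 0.217). Clec10a, another lectin, differed by 0.47 with overlap. Clec4n, which encodes dectin-2, had no count in any of the 6 B1b libraries, which allows at most 0.407 CPM in a wild-type library. Ly6c2, the surface marker of classical monocytes, was at 2.16, 2.57 and 2.61 CPM in wild type and at 3.66, 4.98 and 0.908 CPM in cre. Cre 3 was the lowest of the 6 and cre 2 the highest (log2 fold change 0.35, edgeR adjusted p = 0.853), and 32.99% of the 50-base stretches of its transcript also occur in another gene, mostly Ly6c1. Plac8, a small cysteine-rich protein, was among the most abundant of the genes and did not differ beyond the spread (wild type 707 ± 56.2 CPM, cre 699 ± 65.9 CPM, SD, n = 3, edgeR adjusted p = 0.961).

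The wild-type B1b libraries also differed among themselves. For the 12 genes with wholly higher cre values, wild type 1 was the lowest wild-type library in 11 and wild type 3 the highest in 11. Those 12 were picked by these same values. Among all 32 tested members wild type 1 was the lowest in 19 and wild type 3 the highest in 21. Over all genes tested, wild type 1 was the lowest in 37.0% and wild type 3 the highest in 33.8%. For the 12 genes the highest wild-type value exceeded the lowest by 1.07-fold (Ctss) to 4.49-fold (C1qa). Their cre values spread by 1.07-fold (Ctss) to 1.90-fold (C1qa). Without wild type 3, 6 genes passed the threshold, all higher in cre (edgeR): Csf1r and Lyz1 with F13a1, Mrc1, Cd163 and Clec7a. Without wild type 2 or without cre 2 only Lyz1 passed, and without cre 1 only Lgmn. Without wild type 1 Lyz1 and Retnla passed, and without cre 3 Csf1r and Lyz1. The counts over all genes moved as well, from 83 of 11732 tested with every library. Leaving out wild type 3 gave 101 of 12149, wild type 2 gave 66 of 12224 and wild type 1 gave 35 of 11992. Leaving out cre 1 gave 36 of 12156, cre 2 gave 42 of 12217 and cre 3 gave 103 of 12158. The calls also moved with the method. DESeq2 called 5 (F13a1 and Mrc1 in addition), against 196 of all 11046 genes tested. With limma-voom 5 passed (Lyz2, Fn1 and Retnla in addition, and not Csf1r), against 80 of 11732. The fit without robust estimation called 6, against 82 of 11732, and the fit without a filter 7, against 327 of 19348. A single fit over all 16 libraries, where 4 groups shared 1 estimate of spread, called 0, against 0 of 15091.

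Summed over 12 macrophage genes chosen after the values were seen (Csf1r, Adgre1, Lyz1, Lyz2, C1qa, C1qb, C1qc, Mrc1, Cd163, Timd4, Gata6 and Trem2), wild-type B1b libraries held 181 ± 61.5 CPM and cre libraries 343 ± 36.5 CPM (SD, n = 3). The ratio was 1.9, and it was 1.7 without Lyz2 and 1.56 without either lysozyme. All 40 genes summed to 5010, 5200 and 5380 CPM in wild type and to 5620, 5680 and 5930 CPM in cre, a far smaller relative difference. No test is given for these sums. The other myeloid genes, a list of 35 that shares no gene with the 40, gave 27 tested genes, none past the threshold by edgeR, 5 higher and 1 lower before adjustment, and a median log2 fold change of 0.00. The smallest p-values belonged to Fcgr3 and Tlr4. Fcgr3, a receptor of immunoglobulin G, averaged 5.65 and 12.5 CPM in wild-type and cre libraries (log2 fold change 1.12, edgeR adjusted p = 0.0912). Tlr4, the receptor of lipopolysaccharide, averaged 52.4 and 66.1 CPM (log2 fold change 0.33, edgeR adjusted p = 0.212). Both were wholly higher in cre, as were Ccr2, Cx3cr1, Msr1 and Pilra. Transcription factors of the lineage overlapped: Spi1, which encodes PU.1, differed by -0.06 and Cebpa by 0.69 on the log2 scale.

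Markers of other cells that could share the sort moved in different directions. Summed over 12 genes of the large peritoneal macrophage, which include Adgre1, Timd4 and Gata6, the level ran from 109 to 133 CPM in wild-type libraries and from 102 to 119 CPM in cre ones. None of the 7 tested passed by edgeR, with 3 log2 fold changes above 0 (Cd5l 1.0, Alox15 0.75 and Prg4 0.11) and 4 below. Icam2, an adhesion molecule also on B cells, was the largest part of the sum over the 12, with a mean of about 51 CPM in wild type. It was the 1 with an unadjusted p under 0.05 (log2 fold change -0.36, edgeR adjusted p = 0.231). The 9 dendritic cell genes summed to 179 to 225 CPM in wild type and 129 to 164 CPM in cre; Ccr7, a homing receptor also of B cells, made up most of that sum and differed by -0.82 (edgeR adjusted p = 0.317). Within that list Siglech, of plasmacytoid dendritic cells, was wholly lower in cre and Mgl2 wholly higher, and neither passed (edgeR adjusted p = 0.205 and 0.23). The 10 neutrophil genes summed to 1.28 to 2.94 CPM over all 6 libraries, and none was abundant enough to test. The 8 mast cell genes summed to 6.94 to 10.8 CPM in wild type and 4.54 to 23.0 CPM in cre. The part of other cells in the differences was not tested.

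In aortas none of the 40 genes passed the threshold, although all were abundant enough to test. The test called 0.015% of 13364 genes. By edgeR 1 of the 40 had a higher and 2 a lower level in cre at an unadjusted p under 0.05, against 6.87% and 5.72% of all genes. DESeq2 and every other alternative also called none of the 40. The median log2 fold change was 0.19, beside 0.00 over all genes, and 26 genes were above 0, against 50.2%. Of the kinds of gene, the lysosomal genes had a median of 0.27 and the receptors and surface genes one of -0.05.

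The aortic genes with the smallest p-values were Fn1, Folr2 and Gata6. Fn1, fibronectin, which stromal cells also make, was at 3570, 8120, 3680, 8170 and 6590 CPM in wild-type aortas and at 3430, 3020, 4030, 2890 and 3930 CPM in cre aortas. Of the wild-type aortas 3 stood far above all cre ones and 2 within their range (log2 fold change -0.80, SE 0.24, edgeR adjusted p = 0.243). Folr2, a folate receptor of resident macrophages, was at 39.1, 30.2, 34.0, 42.6 and 37.6 CPM in wild type and at 44.6, 54.3, 43.4, 44.6 and 72.4 CPM in cre. It was the 1 gene of the 40 whose groups did not overlap, against 1.65% of all genes in that direction (log2 fold change 0.50, edgeR adjusted p = 0.28). Gata6, also a transcription factor of vascular smooth muscle, was at 86.4, 88.4, 63.8, 71.5 and 68.2 CPM in wild type and at 52.5, 43.2, 71.1, 46.1 and 71.8 CPM in cre. The groups overlapped, cre 3 and cre 5 lying within the wild-type range (log2 fold change -0.40, edgeR adjusted p = 0.352).

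The genes that moved in B1b cells overlapped between genotypes in aortas. Csf1r ran from 241 to 399 CPM in wild type and from 198 to 390 CPM in cre (log2 fold change -0.14, 95% interval -0.56 to 0.29). Lyz1 ran from 5.04 to 9.65 and from 6.17 to 11.1 CPM (log2 fold change 0.39, 95% interval -0.18 to 0.96). Lgmn ran from 355 to 771 and from 492 to 878 CPM (log2 fold change 0.26, 95% interval -0.17 to 0.69). Trem2 and Gpnmb, of plaque macrophages, had log2 fold changes of 0.37 and 0.49, and neither passed (edgeR adjusted p = 0.619 and 0.53). The intervals give the range of differences that these 10 aortas do not exclude. Among the other genes, log2 fold changes reached 0.60 for Ly6c2 and 0.58 for Plac8, the monocyte genes, and -0.39 for Cd163. Without aorta cre 2 the values were 0.30 for Ly6c2 and 0.35 for Plac8, and without both shallow aortas they were 0.11 and 0.38.

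**Figure D2:**
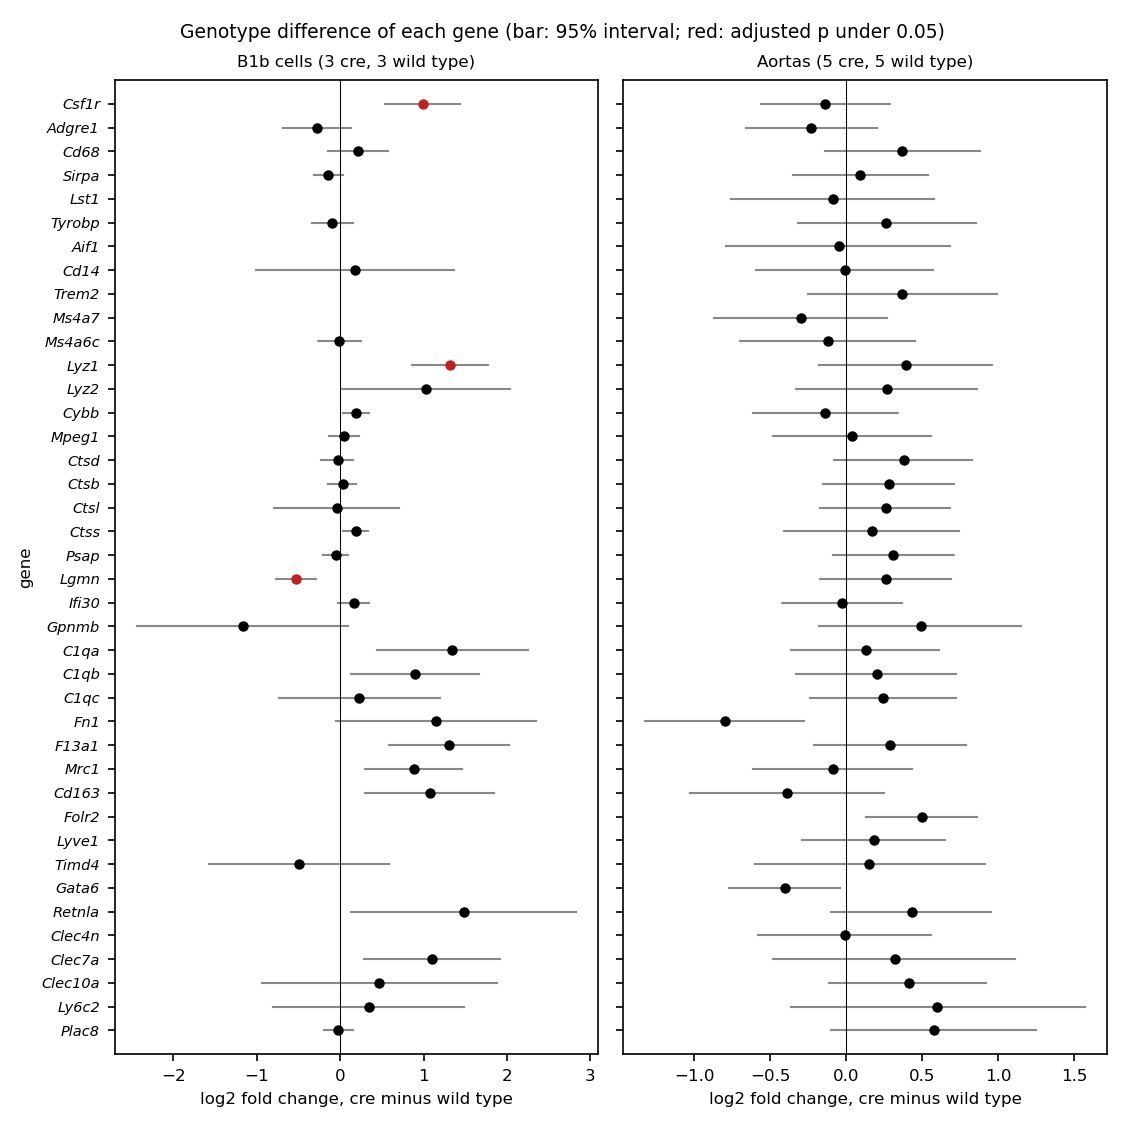
Log2 fold change, cre minus wild type, of each gene with its 95% interval, in B1b cells (left, 3 against 3 libraries) and aortas (right, 5 against 5); red points have an adjusted p under 0.05 and genes too low to test have no point. Csf1r, Lyz1 and Lgmn are red on the left, and no point is red on the right.

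Much of the aortic spread ran through most of the genes at once. Aorta wt 5, 1 of the shallow libraries, was the lowest wild-type aorta in 28 of the 40 genes, against 31.4% of all genes tested, and wt 4 the highest in 29, against 15.4%. Cre 5 was the highest cre aorta in 30, against 17.1%, and cre 3 the lowest in 23, against 22.0%. Lyz2 ran from 906 to 2620 CPM in wild type and from 1610 to 2880 CPM in cre, and Gpnmb from 586 to 1840 and from 1230 to 2870 CPM. Other tissue genes also varied between these aortas. The 5 adipocyte genes summed to 2740 CPM in wt 5, 2680 in cre 3 and 3370 in cre 4, and to 515 to 1360 CPM in the rest. The 5 smooth muscle genes summed to 22000 CPM in cre 3, the highest of the 10 aortas, and to 8170 CPM in cre 5, the lowest, with 12800 CPM in wt 4 and 17400 CPM in wt 5. The 6 heart muscle genes summed to 560 to 2520 CPM in wild type and to 648 to 6310 CPM in cre. The 5 fibroblast genes summed to 9860 to 14100 CPM in wild type and to 6990 to 11800 CPM in cre. Their part in the aortic values, Fn1 included, was not tested.

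**Figure D3:**
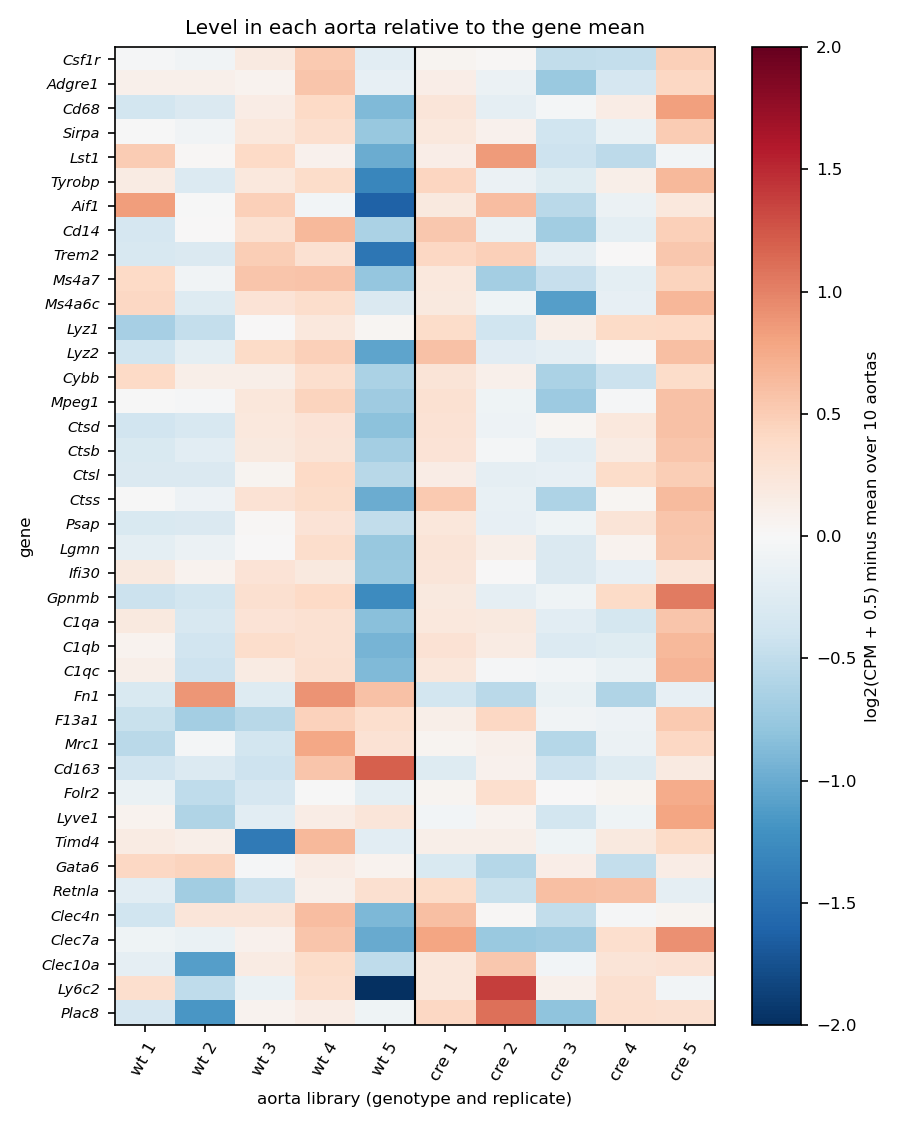
Level of each gene (rows) in each of 10 aortas (columns), as log2 of CPM plus 0.5 minus the mean of the gene over the 10, from blue (low) to red (high), with the ends of the colours at -2 and 2. Column wt 5 is blue in most rows and columns wt 4 and cre 5 are red in most.

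The genotype difference in B1b cells minus that in aortas was tested over all 16 libraries. None of the 40 genes passed by edgeR, beside 0.0199% of 15091 genes, so no gene was shown to respond differently in the 2 kinds of sample by that test. Before adjustment 8 had a higher and 2 a lower difference in B1b cells at p under 0.05, against 4.94% and 6.18% of all genes. Fn1 had the smallest p, with 1.15 in B1b cells and -0.80 in aortas, a difference of 1.94 on the log2 scale (95% interval 1.01 to 2.88, edgeR adjusted p = 0.154). DESeq2 called Fn1 alone among the 40 (adjusted p = 0.00512). Csf1r was next by p with a difference of 1.12 (95% interval 0.45 to 1.79, edgeR adjusted p = 0.219), and then Lgmn with -0.79 (edgeR adjusted p = 0.34). Larger differences than that of Csf1r, with wider intervals, were -1.70 for Gpnmb, 1.46 for Cd163, -1.46 for Gata6 and 1.21 for C1qa. For Lyz1 the difference was 0.91 (95% interval 0.10 to 1.72, edgeR adjusted p = 0.393).

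The levels of the genes set the differences in scale. Between wild-type B1b cells and wild-type aortas 33 of the 40 genes were lower in B1b cells, 5 were higher and 2 did not pass, against 40.4% lower and 35.4% higher of 14339 genes. The genes higher in B1b cells were Plac8 (34.8-fold, 709 against 20.3 CPM), Cybb (2.87-fold), Ifi30, an antigen-processing thiol reductase (2.75-fold), Lyz1 (1.65-fold) and Ms4a6c (1.49-fold). For Lyz1 the call ended under 3 of 4 other settings and whenever wild-type B1b library 2 or 3 or aorta wt 1, 2 or 3 was dropped (edgeR adjusted p up to 0.18). Retnla and Ly6c2 were at like levels in both (31.0 and 22.1 CPM, and 2.46 and 3.16 CPM), and neither difference passed.

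The genes lower in B1b cells included 11 of the 12 macrophage genes summed above, Lyz1 being the exception. Csf1r was 34.8-fold higher in wild-type aorta (297 against 8.50 CPM), Lyz2 17.8-fold, C1qa 178-fold, Fn1 42.3-fold, Mrc1 8.25-fold and Adgre1 7.77-fold. Clec4n, with no count in B1b cells, was at least 66.8-fold higher in wild-type aorta, where it stood at 27.2 CPM, taking 3 counts as the most that a 0 allows in 1 wild-type B1b library. Cre B1b cells, where Csf1r averaged 17.0 CPM, still lay below the lowest aorta, at 198 CPM. For Timd4, 2.63-fold higher in aorta, the call was lost without wild-type B1b library 1 or without aorta wt 4 (edgeR adjusted p = 0.0648 and 0.0545).

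Levels per length of transcript are reads per kilobase of transcript in CPM units (RPKM), with GENCODE lengths. Among genes with a length, Plac8 at 950, Psap at 543, Ctss at 492 and Cybb at 126 RPKM led in wild-type B1b cells. Psap, the precursor of the saposins that help degrade lipids, and Ctss were therefore among the leading genes of both sample types. In wild-type aortas Lyz2 led at 1380 RPKM, followed by Ctsd at 1320, Psap at 1080 and Ctss at 856 RPKM. Ctsd shares 36.57% of its 50-base stretches with another annotated gene. Csf1r stood at 2.19 RPKM in wild-type and 4.39 RPKM in cre B1b cells, beside 77.3 RPKM in wild-type aortas. Retnla was at 51.4 RPKM in wild-type and 145 RPKM in cre B1b cells, beside 37.2 RPKM in wild-type aortas. Ifi30 had no length in the sources used here, so its place among these genes is not known.

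**Figure D4:**
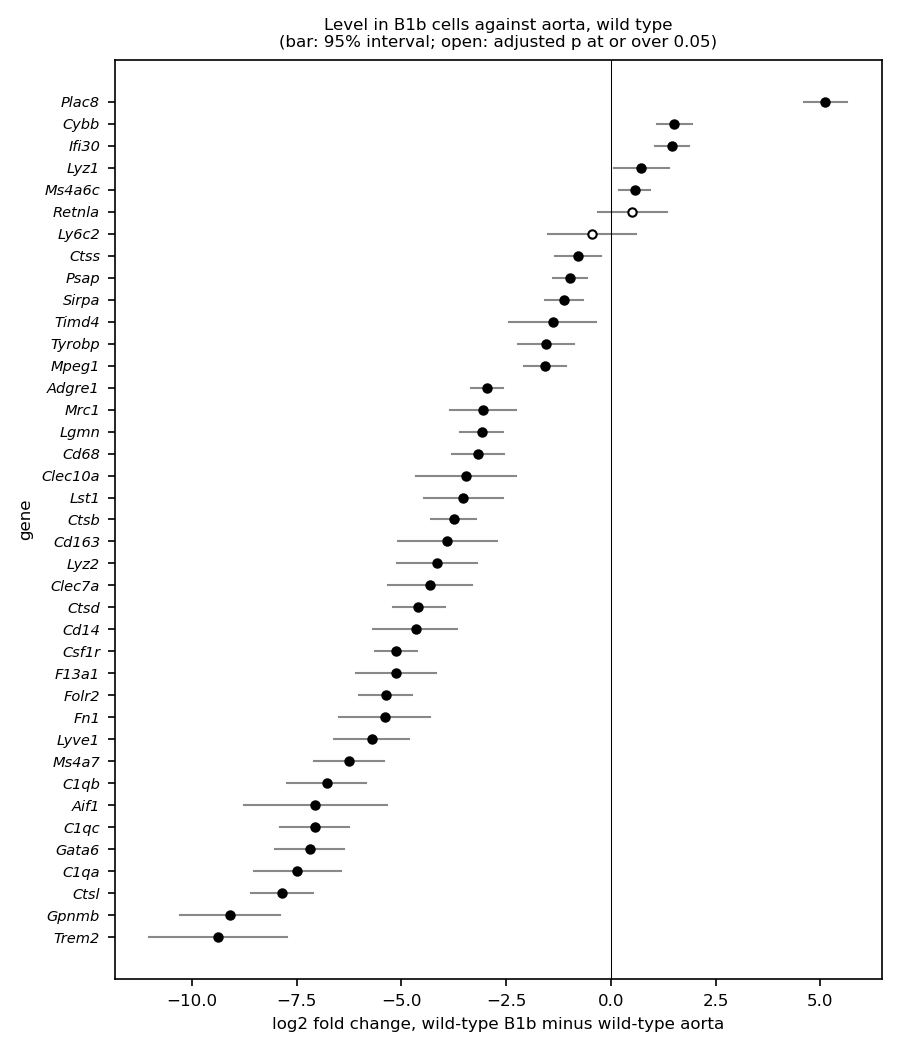
Log2 fold change, wild-type B1b minus wild-type aorta, of 39 of the genes with its 95% interval, ordered by size; open points have an adjusted p of 0.05 or more and Clec4n, with no count in B1b cells, is left out. Plac8 stands alone at the top at 5.12, and Trem2 lies lowest at -9.37.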

How the data were processed

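RNA sequencing counts were analysed for 16 mouse libraries. Per the labels' protocols, RNA came from a Direct-zol kit and went into KAPA mRNA Hyperprep libraries. The submitters' processing notes name CASAVA 1.8.2, STAR 2.5.2b and mm10. How reads were counted, with which annotation release and whether by strand, is not given in the sources used here. Raw counts per RefSeq transcript were deposited by the authors without normalisation. Of 35745 transcripts, 35440 took a gene name from RefSeq, 188 from GENCODE and 117 none; the unnamed held 0.24% to 2.5% of a library and stayed in the fits. Transcripts of a gene share reads, so the one of highest total count was kept, which left 24562 genes.

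Each tissue was fitted with edgeR 4.0.16 in R 4.3.3 (TMM, filterByExpr, robust quasi-likelihood F test), with Benjamini-Hochberg adjustment over all genes tested, a threshold of 0.05 and 95% intervals. The difference between tissues was an interaction over all 16 libraries. limma 3.58.1 and DESeq2 1.42.0 gave alternatives. On simulated data the test recovered 80.8% of genes changed 2-fold in the B1b comparison (11732 genes) and 47.5% in the aortic one (13364 genes). Of those changed 4-fold it recovered 94.8% and 95.8%. Unchanged genes made up 6.52% and 4.79% of the calls. The changed genes were picked at random, so these shares need not hold for the listed genes. The members, lists and tests were chosen with earlier results of these data known. Values per library are given for genes past the threshold, for those whose B1b groups do not overlap and reach 1 CPM, for the 3 of smallest p in aortas, and for Csf1r, Lyz1, Lyz2, Adgre1, Timd4, Gata6, Ly6c2 and C1qa; from other lists, genes past the threshold or the 2 of smallest p are named. Some genes under this rule are not reported here but are counted. Replicate numbers are accession order and pair nothing. Intervals of fold changes include the spread between libraries; limits for a count of 0 (3 counts) cover counting error only.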

Additional observations from a re-analysis of the deposited data

Results flagged for a closer look

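In 3 of 80 groups of 5 aortas, counted over the 40 genes and both genotypes, 1 library stood far from the others by Dixon's criterion, which chance alone gives in about 1 of 20 groups. Ifi30, a thiol reductase of antigen processing, was at 77.2 CPM in aorta wt 5, a shallow library, and at 135 to 156 CPM in the other wild-type aortas. Lyve1, a hyaluronan receptor of resident macrophages and lymphatic vessels, was at 112 CPM in aorta cre 5 and at 49.8 to 67.8 CPM in the other cre aortas. Ly6c2, the classical monocyte marker, was at 10.5 CPM in aorta cre 2, from 17 counts in the shallowest library, and at 3.56 to 4.73 CPM in the other cre aortas.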

How the results depend on the processing

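No paired analysis was possible because the numbers in the sample titles are not shared between genotypes and name no pair. The number of all genes past the threshold in B1b cells, 83, became 327 without a filter, 196 with DESeq2 and 0 in the fit over 16 libraries, and ran from 35 to 103 when 1 library was left out. The members past it, 3, became 7 without a filter, 5 with DESeq2, 5 with limma-voom, 6 without robust estimation and 0 in the fit over 16 libraries, and ran from 1 to 6 when 1 library was left out. In aortas 2 genes passed, and 204 with DESeq2, 1 with the transcript of lowest count, 1 with limma-voom, 6 without robust estimation, 47 in the fit over 16 libraries, 92 without the 2 shallow aortas, 9 with quality weights and 0 to 14 when 1 library was left out. For the difference between tissues 3 passed, 173 with DESeq2, where 1 member did, and 1 to 7 when 1 library was left out. The summed macrophage genes had a ratio of 1.9, which was 1.56 without lysozymes and ran from 1.63 to 2.3 when 1 library was left out. The causes were not tested.

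Genes near 0 changed sign. In B1b cells Ms4a6c was 0.01 without a filter and 0.01 with the transcript of lowest count, and Ly6c2 -0.08 with limma-voom. In aortas Ms4a6c was 0.02 with the transcript of lowest count. Without the shallow aortas Sirpa was -0.05, Mpeg1 -0.06 and C1qa -0.05, and with quality weights Cd14 was 0.07, Mrc1 0.07 and Clec4n 0.01. When 1 library was left out, log2 fold changes in B1b cells ran from -0.19 to 1.06 for Cd14, -0.01 to 0.13 for Mpeg1, -0.26 to 0.14 for Ctsl, -0.15 to 0.14 for Ms4a6c, -0.09 to 0.05 for Plac8, -0.08 to 0.05 for Ctsd, -0.26 to 1.8 for Clec10a and -0.12 to 0.82 for Ly6c2. In aortas they ran from -0.33 to 0.04 for Lst1, -0.26 to 0.19 for Aif1, -0.17 to 0.05 for Ifi30, -0.18 to 0.18 for Clec4n, -0.12 to 0.19 for Mpeg1, -0.16 to 0.19 for Cd14, -0.09 to 0.41 for Timd4, -0.36 to 0.06 for Ms4a6c, -0.21 to 0.14 for Mrc1, -0.05 to 0.19 for Sirpa, -0.02 to 0.23 for C1qa and -0.06 to 0.28 for Lyve1. The difference between tissues ran from -0.29 to 0.12 for Adgre1 and -0.74 to 0.26 for Ly6c2. No member past the threshold changed sign under any alternative run. Low counts in B1b cells kept the 8 lowest members out of the test there.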
